A study of Mus musculus with 29 samples.

Results

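Fatty acids are the main fuel of the adult heart, and 34 genes of their uptake and oxidation were followed across the 8 groups of the study. The genes were taken by symbol, and all 34 had a row among the 23420 genes of the deposited count files and passed the filter on low counts, which left 13765 genes. By step, 5 genes serve uptake and activation, 3 the breakdown of stored triglyceride, 6 the carnitine shuttle and its malonyl-CoA control, 13 beta-oxidation and 3 electron transfer. A last group of 4 holds thioesterases, a mitochondrial carrier and a pyruvate dehydrogenase kinase. Fatty acids enter the cardiomyocyte through transporters, are activated to acyl-CoA, pass into mitochondria as carnitine esters and are shortened there in repeated cycles. Each cycle hands electrons to the respiratory chain. In pressure overload the adult heart is known to lower transcripts of this pathway, which are controlled by the nuclear receptor PPARα, the estrogen-related receptors and their coactivator PGC-1α.

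The libraries came from hearts of C57BL/6J mice labelled 12 weeks old, in which the protein kinase C isoforms δ and ε were ablated singly or together. The genotypes were wild type, postnatal ablation of PKCδ in the heart, germline knockout of PKCε, and a knockout of both labelled combined. Each genotype was sampled without stress and 4 weeks after TAC (transverse aortic constriction), in which a tie around the aorta makes the left ventricle pump against higher pressure. There were 4 unstressed and 4 TAC libraries of wild type, 3 and 3 of PKCδ, 3 and 4 of PKCε, and 4 and 4 of the combined knockout. The tissue label names the whole heart while the protocol names ventricular apexes, and the labels do not name the Cre driver of the PKCδ ablation. No sham operation is labelled, so the TAC effect includes that of surgery. The labels do not tie libraries to animals beyond a title each, and p-values therefore measure the spread between these libraries. Some pairs were closer than others by chi-square per degree of freedom, where lower is closer. Unstressed combined replicates 2 and 4 gave 1.58 and unstressed wild-type 1 and 4 gave 2.29. Replicates 1 and 2 gave 2.54 in PKCδ TAC and 2.63 in unstressed PKCε hearts. Other pairs of these groups gave 5.34 to 15.86. Whether the close pairs share a heart was not tested.

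Each library held 10523709 to 17314739 counts in genes, and a member held between 113 (Cpt1b) and 89959 (Fabp3) counts in a library. Prkce, the targeted gene of PKCε, lay at 42.4 to 52.9 CPM (counts scaled to a common library size) in the unstressed libraries with an intact gene and at 6.59 to 9.19 CPM in those labelled PKCε or combined. After TAC the library labelled combined, replicate 2, held 31.5 CPM of Prkce, against 8.21 to 11.0 in the other 3 of its group, while the lowest wild-type value after TAC was 24.0 CPM, in replicate 2. Counts of called members between wild-type and combined hearts, and for TAC in each, are therefore also given without these 2 libraries. Prkcd, the targeted gene of PKCδ, held 16.3 to 18.7 CPM in unstressed PKCδ libraries and 13.4 to 15.9 in wild type. The deleted exons are not labelled, so whole-gene counts do not check that label. The multicopy ribosomal RNA gene Rn45s had a share of 9.90% to 14.1% without stress against 4.51% to 8.59% after TAC, and its part in the results was not tested. Xist was detected in 18 of 23 libraries labelled male, and Y-linked transcripts in 4 of 6 labelled female, all 6 of them TAC hearts. Detection here means at least 5% of the level in the highest library. Both kinds of transcript were detected in 9 of 15 TAC libraries and in 2 of 14 unstressed ones. The part of this imbalance in the TAC effect was not tested. The cardiomyocyte markers Myh6, Tnnt2 and Tnni3 were abundant in every library, while 3 of 5 atrial markers, Myl7, Sln and Bmp10, lay at 1.73 CPM or lower in every library. The other 2 were Myl4 at 2.0 to 14.9 CPM and Nppa, which stressed ventricles also make, at 53.3 to 7150.0 CPM. Of 9 fat cell markers, Cidea lay at 17.4 to 41.0 CPM, Cfd reached 5.63 CPM, and the other 7, Adipoq, Plin1 and Lep among them, lay at 1.61 CPM or lower.

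The members spanned a wide range of transcript levels in unstressed wild-type hearts. Per kilobase of exon, Fabp3, the fatty acid-binding protein that carries fatty acids through the cytosol, led with 5107 ± 319 CPM per kb (mean ± SD, n = 4). Ech1, an auxiliary isomerase for unsaturated fatty acids, followed at 1041 ± 51.9 and Lpl, the lipase that frees fatty acids from circulating lipoproteins, at 937 ± 16.2 CPM per kb. Etfb, a subunit of the electron-transferring flavoprotein, held 604 ± 19.9 CPM per kb. Next came the acyl-CoA dehydrogenases for medium and very long chains, Acadm at 479 ± 27.2 and Acadvl at 456 ± 8.69, and the trifunctional protein subunit Hadha at 439 ± 28.2 CPM per kb. Acadm, Acadvl and Hadha each differed from the next in the order by less than the summed SD of the pair, Hadha from Acaa2 at 421 ± 17.2. Exons of other genes cover 69.1% of the exonic bases of Etfb, 45.0% of Acadvl and 19.6% of Fabp3, so these levels may be understated. The lower end held Cpt1a, the liver-type carnitine palmitoyltransferase, at 19.3 ± 1.55 and Lipe, hormone-sensitive lipase, at 9.59 ± 1.22 CPM per kb. Cpt1b, the muscle-type carnitine palmitoyltransferase, was listed at only 4.05 ± 0.242 CPM per kb, but 94.8% of its exonic bases also belong to a same-strand read-through transcript annotated as Gm44502. Under a former symbol that transcript has a row in the files with 0 counts in all 29 libraries, and reads that fall on more than 1 gene were set aside in the files. The counts of Cpt1b may thus cover only a small stretch of the gene, though the annotation used for counting is not given. Its level is not compared with that of Cpt1a, and counts of members called after TAC are also given without it.

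Members differed in how tightly the libraries of a group clustered. The coefficient of variation, taken within each of the 8 groups, had a median over groups of 10% or less in 29 of 34 members. Pdk4, the kinase that switches off pyruvate dehydrogenase and is known to follow feeding state, varied most, with a median of 41.1%, and Ucp3, a mitochondrial carrier that responds to fatty acids, came next with 19.9%. In unstressed combined hearts the 4 libraries held 175, 213, 993 and 219 CPM of Pdk4, and in unstressed PKCε hearts the 3 held 329, 426 and 61.9. A single library thus stood far above the others in the former group and far below them in the latter. Pdk4 passed no test in any comparison, and its TAC effect had a standard error of 0.57 to 0.66 on the log2 scale against 0.08 to 0.09 for Hadha and 0.15 to 0.17 for Cd36.

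TAC lowered most of the pathway in wild-type hearts. Of 34 members 25 fell and 1 rose (Cpt1b) in edgeR's quasi-likelihood test at an adjusted p below 0.05, while 8 were not called. Over all 13765 genes 35.7% were called, 17.9% lower and 17.8% higher. The median log2 fold change of the members was -0.39, against -0.00298 for all genes. In PKCε hearts 23 members fell and none rose (background 28.9%, of which 14.3% lower and 14.5% higher, median of members -0.39). In combined hearts 20 fell and 2 rose, Cpt1b and Acot13 (background 43.8%, of which 21.8% lower and 22% higher, median -0.35). In PKCδ hearts 12 fell and 2 rose, Cpt1b and Acads (background 26.9%, of which 14% lower and 12.9% higher, median -0.18). Without Cpt1b the counts lower stay at 25, 23, 20 and 12 of 33, and those higher become 0, 0, 1 and 1. Leaving out combined TAC replicate 2 and wild-type TAC replicate 2 together gave 25 members called in wild type and 21 in combined hearts.

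The libraries of the 2 conditions often did not overlap. Every TAC library lay below every unstressed library for 22 members in wild type, 18 in PKCδ, 15 in PKCε and 18 in combined hearts, where 17.6%, 25.4%, 17.5% and 17.1% of all genes tested did so. The opposite order held for 1, 3, 0 and 1 members, and for 17.6%, 22.6%, 17.9% and 16% of all genes. Cpt1b was the 1 in wild type and 1 of the 3 in PKCδ hearts. Summed over the 34 members, wild-type libraries held 20808 to 22443 CPM unstressed and 15652 to 19247 after TAC. In PKCδ hearts the sum lay at 21293 to 21637 and then 18230 to 19399 CPM, in combined hearts at 18157 to 21091 and then 16451 to 18456, so that the last pair of ranges overlap. PKCε hearts overlapped as well, with 21595 to 24750 CPM unstressed and 16876 to 21680 after TAC.

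**Figure D1:**
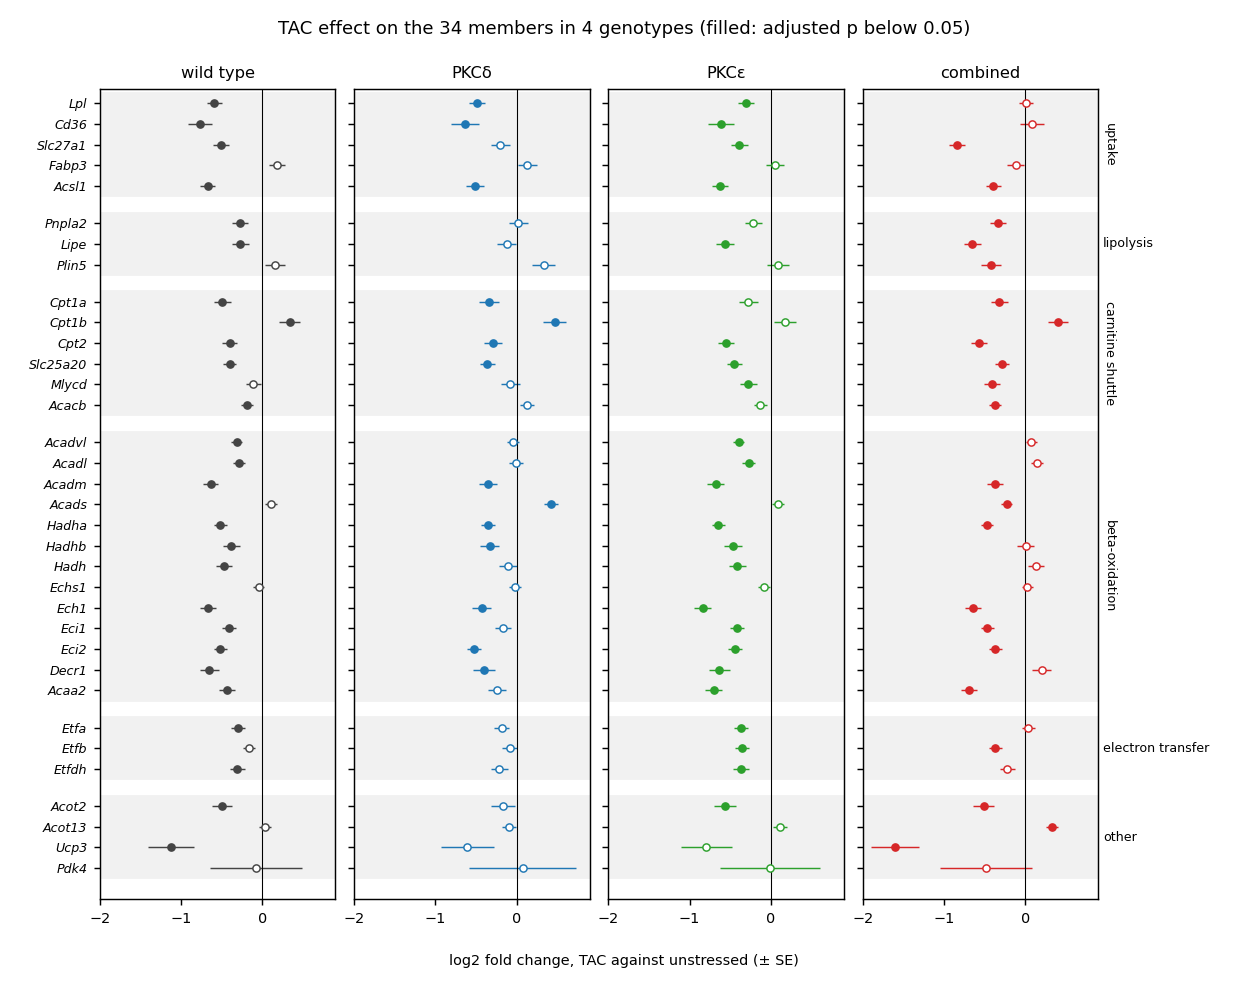
Log2 fold change after TAC against unstressed hearts (x axis, ± SE) for the 34 members (y axis, by step) in each of the 4 genotypes, from edgeR's quasi-likelihood fit of 29 libraries; filled points have an adjusted p below 0.05. Most points lie left of 0, with 25, 12, 23 and 20 members called lower from left to right, while Fabp3, Echs1 and Pdk4 are open in every panel.

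Called lower in all 4 genotypes were 7 members, or 20.6% of the 34, where 4.34% of all genes tested were. They are Acsl1, Cpt2, Slc25a20, Acadm, Hadha, Ech1 and Eci2, so that activation, entry into the mitochondrion and the cycle itself are each represented. The 4 comparisons share no libraries. Another 10 members were called lower in 3 genotypes, 10 in 2, 2 in 1 (Plin5 and Acads) and 5 in none (Fabp3, Cpt1b, Echs1, Acot13 and Pdk4).

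Among the genes of uptake and activation, Acsl1, the long-chain acyl-CoA synthetase that commits fatty acids to metabolism, fell in every genotype. Wild-type libraries held 1014, 1069, 1073 and 1086 CPM unstressed and 673, 655, 575 and 755 after TAC, a drop of 37.3% (-0.67 ± 0.10, adjusted p = 4.2e-06, log2 ± SE). All 4 TAC libraries lay below all 4 unstressed ones. PKCδ hearts went from 1117, 1019.7 and 1102 to 787, 742 and 751 CPM (-0.51 ± 0.11, adjusted p = 0.001). In PKCε hearts Acsl1 moved from 1130.2, 1120.1 and 979.9 to 582, 677, 692 and 846 CPM (-0.62 ± 0.10, adjusted p = 4.6e-05). The groups did not overlap in either single ablation. Combined hearts started lower, at 742, 837, 867 and 827 CPM, and held 558, 759.6, 559.8 and 613 after TAC (-0.39 ± 0.10, adjusted p = 0.0013), with 1 TAC library inside the unstressed range.

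Lpl and the fatty acid translocase Cd36 fell in wild type and both single ablations. Cd36 in wild-type hearts went from 303, 258, 314 and 329 to 174, 173, 159 and 205 CPM, a drop of 41.0% (-0.76 ± 0.15, adjusted p = 0.00033). The fall of Cd36 was -0.63 ± 0.17 (adjusted p = 0.0076) in PKCδ and -0.61 ± 0.16 (adjusted p = 0.0052) in PKCε hearts. Lpl went from 3821, 3784, 3936 and 3879.9 to 2455, 2537, 2411 and 2829 CPM in wild type (-0.59 ± 0.09, adjusted p = 1.1e-05), and the groups lay far apart. Its fall was -0.49 ± 0.10 (adjusted p = 0.00092) in PKCδ and -0.30 ± 0.10 (adjusted p = 0.019) in PKCε hearts, where it was lost under 6 alternatives. In combined hearts neither was called, with Lpl at 0.01 ± 0.09 (adjusted p = 0.93) and Cd36 at 0.08 ± 0.15 (adjusted p = 0.68). The transporter Slc27a1 fell in wild type (-0.51 ± 0.10, adjusted p = 0.00018), PKCε (-0.39 ± 0.10, adjusted p = 0.0058) and combined hearts (-0.84 ± 0.10, adjusted p = 8e-08), in the last from 227, 248, 305 and 256 to 138, 122, 168 and 149.8 CPM without overlap. Fabp3, the most abundant member per kilobase, was not called in any genotype. Its wild-type libraries held 4472, 3847, 4202 and 4293 CPM unstressed and 5244, 5735, 3764 and 4357 after TAC, overlapping ranges (0.18 ± 0.10, adjusted p = 0.16). Exons of Zcchc17 on the opposite strand cover 19.6% of Fabp3.

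**Figure D2:**
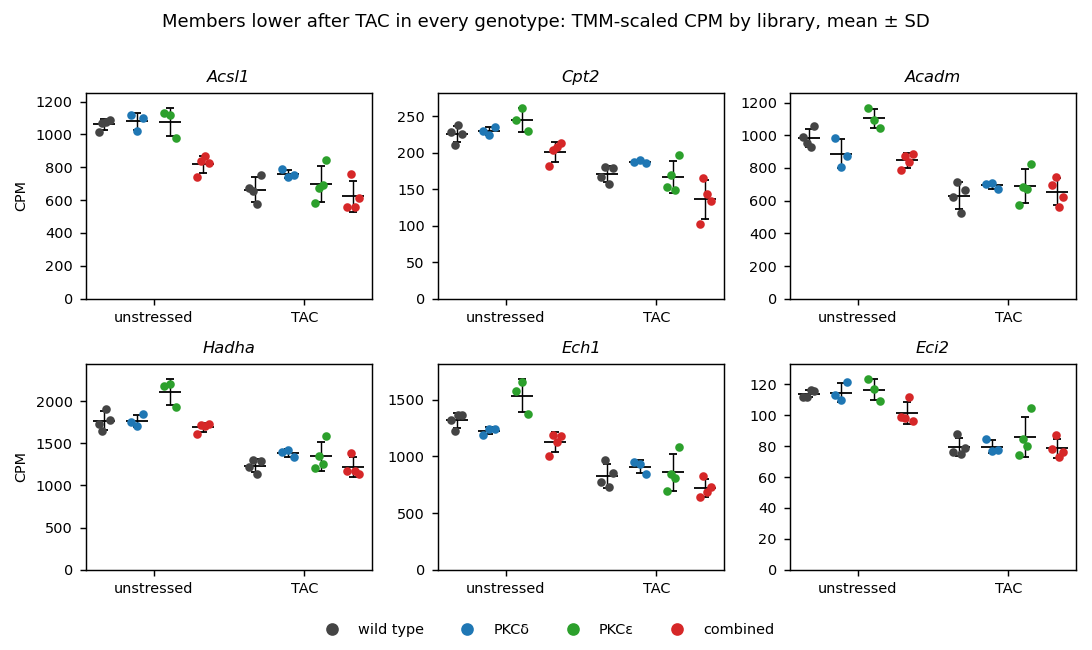
TMM-scaled CPM (y axis, from 0) of 6 members in each library (points) of the 8 groups, coloured by genotype, with the mean (line) ± SD (bar) of 3 or 4 libraries. Points after TAC lie below the unstressed ones in every genotype, except for Acsl1 in combined hearts, where the ranges overlap. An example is Ech1 in wild type at 727 to 966 after TAC against 1225 to 1368 unstressed.

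Lipolysis genes were called lower most often in combined hearts, though of the 3 only Plin5 had a called interaction. With the trend by GC content removed, described below, 2, 0, 2 and 3 were called lower in wild-type, PKCδ, PKCε and combined hearts. No interaction of the 3 genes with TAC in combined hearts was then called. Pnpla2 encodes adipose triglyceride lipase, which starts the breakdown of stored triglyceride, and Plin5 coats lipid droplets next to mitochondria. In combined hearts all 3 fell, Lipe by 36.3% (-0.65 ± 0.10, adjusted p = 1.1e-05), Plin5 by 25.4% (-0.42 ± 0.12, adjusted p = 0.0068) and Pnpla2 by 20.9% (-0.34 ± 0.10, adjusted p = 0.0058). Lipe stood at 43.7, 51.3, 68.8 and 51.6 CPM in these unstressed hearts and 34.4, 32.3, 31.5 and 38.5 after TAC, with no overlap. In wild type Pnpla2 (-0.27 ± 0.10, adjusted p = 0.03) and Lipe (-0.27 ± 0.10, adjusted p = 0.042) fell, and each lost its call under 6 and 9 of the alternatives. Plin5 was 0.16 ± 0.12 (adjusted p = 0.34) there. PKCε hearts showed a fall of Lipe only (-0.56 ± 0.11, adjusted p = 0.00044), and PKCδ hearts none of the 3. Exons of an opposite-strand gene cover 15.7% of Lipe.

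The carnitine shuttle carries long-chain acyl groups across the inner mitochondrial membrane. Cpt2, which releases acyl-CoA inside, held 228, 211, 238 and 226 CPM in unstressed wild type and 167, 180.5, 157 and 179 after TAC (-0.40 ± 0.10, adjusted p = 0.0015). In combined hearts it went from 182, 203, 207 and 213 to 102, 165, 143 and 134 CPM (-0.57 ± 0.10, adjusted p = 2e-05), and in PKCε hearts it fell by 31.8% (-0.55 ± 0.10, adjusted p = 0.00017). All 3 pairs of groups were separate. The PKCδ value was -0.29 ± 0.11 (adjusted p = 0.047), and was lost under 12 alternatives. Slc25a20, the carrier that exchanges acylcarnitine for carnitine, had log2 changes of -0.40 ± 0.09, -0.36 ± 0.10, -0.45 ± 0.09 and -0.28 ± 0.09 in wild-type, PKCδ, PKCε and combined hearts (± SE, adjusted p from 0.00048 to 0.0079). Cpt1a fell in wild type (-0.49 ± 0.11, adjusted p = 0.0007), PKCδ (-0.34 ± 0.12, adjusted p = 0.041) and combined hearts (-0.32 ± 0.11, adjusted p = 0.016), the last 2 calls being lost under 13 and 5 alternatives. Cpt1b went the other way, from a range of 11.3 to 12.8 CPM to one of 14.2 to 15.3 in wild type (0.34 ± 0.13, adjusted p = 0.037, lost under 8 alternatives), with the limit on its counts named above.

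Malonyl-CoA, which blocks the outer step of the shuttle, is made by the product of Acacb and removed by that of Mlycd. Both fell in combined hearts after TAC, Acacb by 22.5% from 770.0, 873, 1003 and 882 to 639, 712, 665 and 716 CPM (-0.37 ± 0.07, adjusted p = 0.00015) and Mlycd by 24.9% from 77.6, 105, 112 and 93.5 to 64.7, 72.9, 76.5 and 77.5 CPM (-0.41 ± 0.10, adjusted p = 0.0011). The TAC libraries of both genes lay below every unstressed library. In wild type Acacb was just called (-0.18 ± 0.07, adjusted p = 0.049, lost under 11 alternatives) and Mlycd was not (-0.11 ± 0.10, adjusted p = 0.41). Mlycd was called in PKCε hearts (-0.28 ± 0.10, adjusted p = 0.046), a call lost under 9 alternatives, and Acacb was not (-0.13 ± 0.08, adjusted p = 0.23). PKCδ hearts showed no call for either (0.13 ± 0.08 and -0.07 ± 0.11). With the GC trend removed, Mlycd was called lower in all 4 genotypes and Acacb in 3, against 2 each from the counts as deposited.

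Of the 13 genes of beta-oxidation, 11 were called lower in wild type after TAC, 11 in PKCε, 7 in combined and 6 in PKCδ hearts. In the same order, 17.9%, 14.3%, 21.8% and 14% of all genes tested were called lower. With the GC trend removed the counts lower were 11, 11, 7 and 3. Acadm, the medium-chain acyl-CoA dehydrogenase, is a textbook target of PPARα and the estrogen-related receptors. Its promoter is shown because it held a match in a search added after the data were seen, as did that of Acacb. The window runs from 250 bases before to 50 after the start of transcription, at chr3:153944594-153944893 on the minus strand (RefSeq, GRCm38.p6). Capitals mark a match to the estrogen-related receptor core AAGGTCA, read on the other strand from position 2 of the window.
Acadm promoter: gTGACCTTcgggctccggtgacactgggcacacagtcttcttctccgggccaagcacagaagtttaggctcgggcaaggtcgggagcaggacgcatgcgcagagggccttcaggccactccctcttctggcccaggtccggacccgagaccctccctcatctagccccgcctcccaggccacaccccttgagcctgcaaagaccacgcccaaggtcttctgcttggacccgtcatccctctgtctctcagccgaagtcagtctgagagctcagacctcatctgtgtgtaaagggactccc
Promoter windows were at hand for 29 of 34 members. The longer element TCAAGGTCA, searched on both strands, was found in the windows of none of them and of 0.466% of all genes, and a pair of direct AGGTCA repeats with 1 base between them in none and 0.0481%. The core AAGGTCA, a search added after the data were seen, was found in Acadm and Acacb, or 6.9% of members, against 5.38% of all genes.

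Acadm held 989.9, 954, 926 and 1055 CPM in unstressed wild type and 621, 713, 525 and 667 after TAC, a drop of 35.7% (-0.64 ± 0.10, adjusted p = 8.9e-06). PKCε hearts went from 1167, 1096 and 1046 to 575, 686, 671 and 824 CPM (-0.68 ± 0.10, adjusted p = 1.6e-05). In PKCδ hearts Acadm fell from 982, 804 and 874 to 703, 709.8 and 669 CPM (-0.35 ± 0.11, adjusted p = 0.017), a call lost without PKCδ unstressed replicate 1, without PKCδ TAC replicate 3 or with the GC trend removed. In combined hearts it went from 786, 876, 837 and 885 to 695, 744, 559 and 620.1 CPM (-0.37 ± 0.10, adjusted p = 0.0023). No TAC library reached the unstressed range of its genotype.

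Hadha and Hadhb encode the subunits of the trifunctional protein, which carries out the last steps of the cycle on long chains. Hadha fell by 30.0% in wild type, from 1731, 1640.0, 1912 and 1777 to 1221, 1296, 1135 and 1291 CPM (-0.51 ± 0.08, adjusted p = 8e-06), and by 36.1% in PKCε hearts (-0.65 ± 0.08, adjusted p = 1.6e-06). In combined hearts it went from 1604, 1713, 1702 and 1732 to 1168, 1388, 1176 and 1138 CPM (-0.47 ± 0.08, adjusted p = 1.2e-05), and its PKCδ fold was -0.35 ± 0.09 (adjusted p = 0.004). Hadha was without overlap in all 4 genotypes. Hadhb was called lower in wild type (-0.38 ± 0.10, adjusted p = 0.0054), PKCε (-0.47 ± 0.11, adjusted p = 0.0024) and PKCδ hearts (-0.33 ± 0.12, adjusted p = 0.041, lost under 11 alternatives) and not in combined hearts (0.01 ± 0.10, adjusted p = 0.98).

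The auxiliary enzymes for unsaturated fatty acids split. Ech1 fell by 37.1% in wild type, from 1322, 1224, 1359.9 and 1368 to 774, 966, 727 and 851 CPM (-0.67 ± 0.10, adjusted p = 9e-06), by 44.1% in PKCε (-0.84 ± 0.11, adjusted p = 1.8e-06) and by 35.9% in combined hearts (-0.64 ± 0.10, adjusted p = 7.3e-06). In PKCδ hearts its log2 change was -0.43 ± 0.12 (adjusted p = 0.0065). The enoyl-CoA isomerase Eci2 fell too, with log2 changes of -0.52 ± 0.08, -0.52 ± 0.09, -0.44 ± 0.09 and -0.37 ± 0.08 in wild-type, PKCδ, PKCε and combined hearts, with no overlap in any. Eci1 fell in wild type (-0.41 ± 0.08, adjusted p = 0.00031), PKCε (-0.42 ± 0.09, adjusted p = 0.0008) and combined hearts (-0.47 ± 0.08, adjusted p = 4.6e-05). Decr1, the dienoyl-CoA reductase, fell in wild type from 148, 159, 164 and 164 to 95.1, 94.0, 102 and 113 CPM (-0.65 ± 0.12, adjusted p = 9e-05) and in PKCδ (-0.40 ± 0.13, adjusted p = 0.026, lost under 7 alternatives) and PKCε hearts (-0.63 ± 0.12, adjusted p = 0.00038), but stood at 0.20 ± 0.12 (adjusted p = 0.16) in combined hearts.

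Acyl-CoA dehydrogenases differ in the chain length they prefer. Besides Acadm, Acadvl (very long chains) fell in wild type (-0.32 ± 0.07, adjusted p = 0.00047) and PKCε hearts (-0.40 ± 0.07, adjusted p = 0.00013), as did Acadl (long chains) with -0.29 ± 0.08 (adjusted p = 0.0036) and -0.27 ± 0.08 (adjusted p = 0.012). Neither was called in PKCδ hearts (-0.05 ± 0.08 and -0.00 ± 0.09) or combined hearts (0.07 ± 0.07 and 0.15 ± 0.07). Acads, the short-chain enzyme, rose in PKCδ hearts from 180.3, 200.2 and 155 to 237, 238 and 244 CPM (0.43 ± 0.09, adjusted p = 0.00042) and fell in combined hearts from 227, 219, 238 and 227 to 189, 169, 204 and 216 CPM (-0.23 ± 0.07, adjusted p = 0.012). Both pairs of groups were separate, but the call in combined hearts was lost under 5 alternatives, 1 of them the fit without combined TAC replicate 2. With the trend by GC content removed, described below, Acads in PKCδ hearts was 0.13 ± 0.06 (adjusted p = 0.13), so the rise was no longer called. The remaining enzymes of the cycle are Hadh and Acaa2, which fell in wild type by 27.9% (-0.47 ± 0.10, adjusted p = 0.00038) and 25.7% (-0.43 ± 0.10, adjusted p = 0.0011), and Echs1, the short-chain hydratase, which passed no test in any genotype (-0.04 ± 0.07 in wild type).

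Electron-transferring flavoprotein and its oxidoreductase pass electrons from the dehydrogenases to ubiquinone. In PKCε hearts all 3 genes fell, Etfa by 22.5% (-0.37 ± 0.09, adjusted p = 0.0022), Etfb by 21.8% (-0.35 ± 0.08, adjusted p = 0.0021) and Etfdh by 22.5% (-0.37 ± 0.10, adjusted p = 0.0061). Wild type showed calls for Etfa (-0.30 ± 0.08, adjusted p = 0.005) and Etfdh (-0.31 ± 0.09, adjusted p = 0.0097), with Etfb at -0.16 ± 0.08 (adjusted p = 0.1). In combined hearts only Etfb was called, from 495, 524, 570.2 and 567 to 373, 446, 427 and 425 CPM (-0.37 ± 0.08, adjusted p = 0.00035). PKCδ hearts gave no call, with values of -0.18 ± 0.09, -0.08 ± 0.09 and -0.21 ± 0.11 for Etfa, Etfb and Etfdh. A same-strand transcript without a row in the files, Gm45233, shares 69.1% of the exonic bases of Etfb.

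Ucp3 showed the biggest fold changes of the members in wild-type and combined hearts. Wild-type libraries went from 70.0, 60.6, 92.8 and 67.8 to 40.3, 30.9, 23.3 and 38.9 CPM, a drop of 54.1% (-1.12 ± 0.29, adjusted p = 0.0044). In combined hearts the unstressed libraries spread from 35.2 to 111 CPM and those after TAC held 20.2, 23.0, 27.3 and 16.7, a drop of 67.2% (-1.61 ± 0.30, adjusted p = 0.00015). Neither pair of groups overlapped. In PKCδ (-0.60 ± 0.33, adjusted p = 0.19) and PKCε hearts (-0.79 ± 0.31, adjusted p = 0.06) the change was not called. Acot2, a mitochondrial thioesterase that frees long-chain fatty acids from CoA, fell in wild type (-0.50 ± 0.12, adjusted p = 0.0027), PKCε (-0.56 ± 0.13, adjusted p = 0.0023) and combined hearts (-0.51 ± 0.13, adjusted p = 0.0018). It has a close paralog, Acot1, and the reads of the pair may be split or set aside. Acot13 rose in combined hearts from 175, 169, 168 and 159.8 to 246, 196, 198 and 205 CPM (0.33 ± 0.07, adjusted p = 0.00074) and passed no test in the other genotypes.

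Of 65 other measured genes of fatty acid and ketone metabolism and its regulators, 26 were called lower and 4 higher in wild type after TAC. The counts were 19 and 6 in PKCδ, 21 and 2 in PKCε and 21 and 11 in combined hearts. Medians in the 4 genotypes were -0.18, -0.10, -0.17 and -0.12. Of all genes tested, 17.9%, 14%, 14.3% and 21.8% were called lower and 17.8%, 12.9%, 14.5% and 22% higher. With the GC trend removed, described below, 23, 12, 19 and 23 of the 65 were called lower and 4, 5, 2 and 11 higher. In that fit 33.1%, 23.1%, 27.8% and 44.6% of all genes were called in either direction. Ppara, which encodes PPARα, fell in every genotype (-0.44 ± 0.08, -0.53 ± 0.09, -0.29 ± 0.08 and -0.32 ± 0.08 for wild type, PKCδ, PKCε and combined, adjusted p from 5.7e-05 to 0.009). Esrrg, the estrogen-related receptor γ, fell in each as well (-0.20 ± 0.07, -0.51 ± 0.08, -0.39 ± 0.07 and -0.53 ± 0.07, adjusted p of 0.022 or lower). Ppargc1a, which encodes PGC-1α, fell in wild type (-0.74 ± 0.14, adjusted p = 0.00016), PKCδ (-0.45 ± 0.16, adjusted p = 0.035) and PKCε hearts (-0.41 ± 0.15, adjusted p = 0.038) and stood at 0.09 ± 0.14 (adjusted p = 0.64) in combined hearts. Bdh1, a ketone body dehydrogenase, rose in all 4 genotypes, by 2.07 ± 0.26, 1.35 ± 0.29, 1.32 ± 0.28 and 1.65 ± 0.25. Acss1, the mitochondrial acetyl-CoA synthetase, and Pdk2 fell in all 4, Acss1 with log2 changes of -0.66 ± 0.09, -0.43 ± 0.10, -0.69 ± 0.09 and -0.43 ± 0.09.

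Marker levels of some other cell types differed after TAC in these bulk samples. Fewer cells of a type and less RNA per cell cannot be told apart in them. Summed over 10 cardiomyocyte markers, unstressed libraries held 113500 to 136900 CPM and TAC libraries 100900 to 120700. Among the 10 markers 5 were called lower and 3 higher in wild type, against 17.9% and 17.8% of all genes tested. Over 9 fibroblast markers the sum was 857.6 to 1390 CPM unstressed and 1647 to 3824 after TAC, over 8 endothelial markers 1037 to 1424 and 1202 to 1420, over 9 macrophage markers 302.4 to 453.3 and 377.1 to 644.1, and over 8 markers of smooth muscle and pericytes 1160 to 1532 and 883.9 to 1282. Of these sums only those of fibroblasts did not overlap, and they include matrix genes such as Col1a1, Col3a1 and Postn. The part of these cell types in the fall of the members was not tested.

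Few members were called different from wild type in the single ablations. In unstressed PKCδ hearts only Acads was called, lower at 180.3, 200.2 and 155 CPM against 230.2, 231, 206 and 222 (-0.32 ± 0.08, adjusted p = 0.018), where 5.37% of all genes were called (2.73% lower, 2.64% higher), and it was not called with the GC trend removed, where 5.46% of genes were (-0.17 ± 0.06, adjusted p = 0.078). In unstressed PKCε hearts none of the 34 was called (3% of all genes, 1.47% lower and 1.53% higher), with a median of 0.10 and a range from -0.38 to 0.28. The count was 1 by DESeq2. Still, all 3 PKCε libraries lay above all wild-type ones for 6 members (Hadha, Echs1, Ech1, Acaa2, Etfb and Acot13) and below for 0, against 7.74% and 7.72% of all genes. For Hadha, at 2184, 2206 and 1926 CPM, the difference was 0.26 ± 0.08 (adjusted p = 0.088). In PKCδ hearts 6 members lay wholly below wild type and 2 above, against 9.55% and 10.5% of all genes. After TAC no member was called in PKCδ hearts, where no gene at all was called (0% of genes by edgeR, with 789 at an unadjusted p below 0.05). All 3 PKCδ libraries nevertheless lay above all wild-type ones for 7 members (Cpt1b, Cpt2, Acadvl, Acadl, Hadha, Hadhb and Decr1) and below for 1 (Lipe), against 4.45% and 4.77% of all genes. None was called in PKCε hearts either (0.0436% of genes, with 0.0218% in each direction and 1553 at an unadjusted p below 0.05), and 2 members lay wholly above wild type and 1 below, against 3.47% and 3.31%. Medians of the members against wild type were 0.12 and 0.05 after TAC. The interactions, which test whether TAC acts differently than in wild type, called no member for PKCδ (1.27% of genes, 0.458% higher and 0.814% lower) or PKCε (0.0363%, with 0.00726% higher and 0.0291% lower). The lower count of members in PKCδ hearts after TAC is therefore not shown to be a weaker response. The highest difference of the TAC effect from wild type over the members was 0.52 and the median 0.16 for PKCδ, against 0.33 and -0.04 for PKCε. DESeq2 called 0 members in these 2 interactions and in both single ablations after TAC.

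A set of members was lower in unstressed combined hearts than in unstressed wild type. In unstressed combined hearts 10 of 34 were called lower than in wild type and none higher, where 29.2% of all genes were called, 13.9% lower and 15.3% higher. The share of members called in either direction, 29.4%, is near that of all genes, and all 10 were lower. The median of the members was -0.12 against -0.00377 for all genes. The 10 were Lpl, Cd36 and Acsl1 of uptake, Acadvl, Acadl, Hadhb, Hadh and Decr1 of beta-oxidation, Etfa of electron transfer and Acot2. No gene of lipolysis or of the carnitine shuttle was among them. With the GC trend removed, described below, Lpl, Acadl and Hadhb were no longer called, while Pnpla2 of lipolysis and Ech1 were. Whether the differences come from genotype or from a batch of libraries was not tested. All 4 combined libraries lay below all 4 wild-type libraries for 13 members, or 38.2%, against 13.8% of all genes tested. They lay above them for 1 member, against 15.7% of all genes. That member was Fabp3, at 4484, 4879, 4563 and 4855 against 4472, 3847, 4202 and 4293 CPM, and it was not called (0.16 ± 0.10, adjusted p = 0.25).

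Hadh, the dehydrogenase for medium and short chains, was lower by the widest margin. Unstressed wild-type libraries held 564, 472, 579 and 564 CPM and combined ones 306, 322, 402 and 312, a drop of 38.4% (-0.70 ± 0.10, adjusted p = 6.5e-06). PKCδ hearts held 482, 499 and 469 CPM and PKCε hearts 575, 599 and 522, all above the combined libraries. Decr1 held 148, 159, 164 and 164 CPM in wild type and 98.4, 104, 97.4 and 101 in combined hearts (-0.66 ± 0.12, adjusted p = 0.00012), a tight group below the range of every other unstressed genotype. Acadvl held 973, 1016, 986 and 982 and 605, 711, 689.8 and 745 CPM (-0.53 ± 0.07, adjusted p = 1.9e-06), again with PKCδ (867, 878 and 936 CPM) and PKCε hearts (1080.2, 1084 and 1002 CPM) above the combined range. Exons of Dvl2 on the opposite strand cover 45.0% of Acadvl, and Dvl2 itself held at most 180 counts in a library and was not called here (0.34, adjusted p = 0.13). Cd36 stood at 176, 221, 222 and 210.4 CPM against 303, 258, 314 and 329 in wild type (-0.54 ± 0.15, adjusted p = 0.0081). Acsl1 was lower by 22.8% (-0.37 ± 0.10, adjusted p = 0.0038), Etfa by 19.9% (-0.32 ± 0.08, adjusted p = 0.004), Acot2 by 22.0% (-0.36 ± 0.12, adjusted p = 0.031), Lpl by 18.7% (-0.30 ± 0.09, adjusted p = 0.013), Hadhb by 17.9% (-0.28 ± 0.10, adjusted p = 0.039) and Acadl by 14.0% (-0.22 ± 0.07, adjusted p = 0.03). The calls of Hadhb, Acadl and Acot2 were lost under 10, 7 and 6 alternatives. Without combined unstressed replicate 1 the count was 6.

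**Figure D3:**
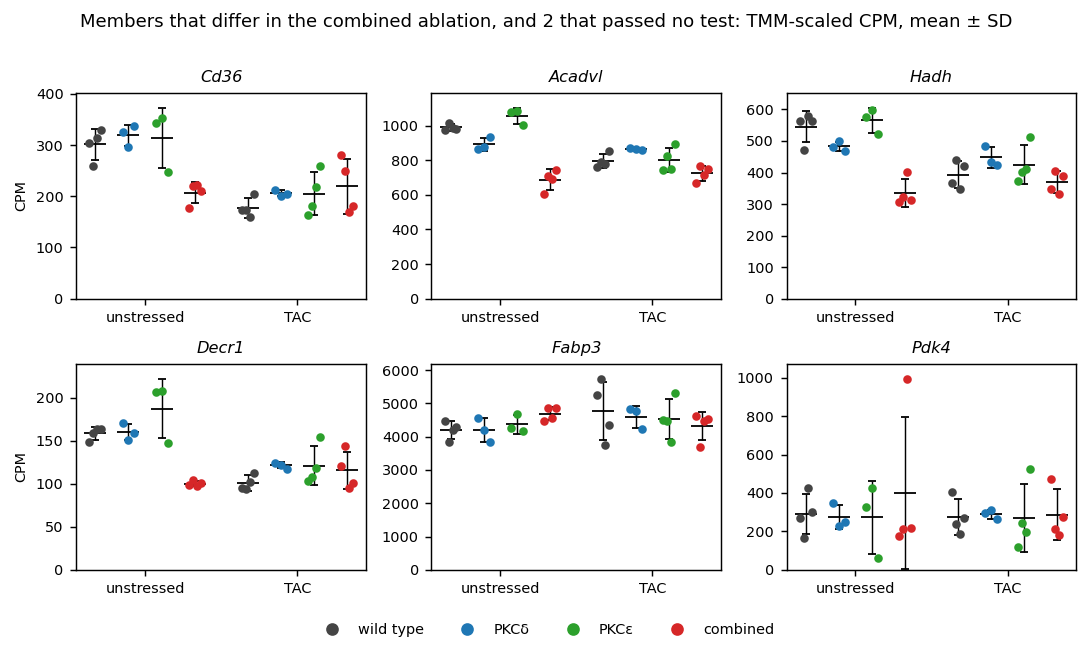
TMM-scaled CPM (y axis, from 0) of 6 members in each library (points) by genotype and condition, with the mean (line) ± SD (bar) of 3 or 4 libraries. Unstressed combined hearts sit lowest of the unstressed groups for Cd36, Acadvl, Hadh and Decr1 (Decr1 at 97.4 to 104 CPM), while Pdk4 overlaps between groups.

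Markers of other cells differed in the same libraries, in both directions. In unstressed combined hearts 4 of 8 endothelial markers were called lower than in wild type and none higher (summed level 1037 to 1190 CPM against 1254 to 1296), 5 of 8 of smooth muscle and pericytes (1160 to 1390 against 1260 to 1393) and 3 of 9 of fibroblasts (857.6 to 1390 against 964.3 to 1071, with medians of 1176 and 1039). With the GC trend removed the fibroblast calls were 1 of 9. Of all genes tested, 13.9% were called lower and 15.3% higher in this comparison. Macrophage markers stood at 440.2 to 453.3 against 358.7 to 404.3 CPM, with 3 of 8 tested called higher. Cardiomyocyte markers lay at 124800 to 130400 against 117200 to 136900 CPM. Cd36 and Lpl are also made by cells other than cardiomyocytes, endothelial cells for Cd36 among them, and the part of these cells in the differences was not tested.

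After TAC the combined hearts differed from wild type in 7 members, where 6.76% of all genes were called (4.22% higher, 2.54% lower). Lipe (-0.34 ± 0.10, adjusted p = 0.045), Cpt2 (-0.33 ± 0.10, adjusted p = 0.037), Mlycd, Acads and Acaa2 were lower and Lpl (0.30 ± 0.09, adjusted p = 0.04) and Acot13 higher. Acads held 242, 255, 223 and 242 CPM in wild type and 189, 169, 204 and 216 in combined hearts (-0.31 ± 0.07, adjusted p = 0.014), without overlap. Mlycd held 98.2, 98.0, 83.0 and 98.0 and 64.7, 72.9, 76.5 and 77.5 CPM (-0.37 ± 0.10, adjusted p = 0.024). The thiolase gene Acaa2, which completes the cycle, held 445, 541, 439 and 471 and 297, 429, 363 and 375 CPM (-0.37 ± 0.10, adjusted p = 0.024), and Acot13 held 178, 181, 159 and 169 and 246, 196, 198 and 205 CPM (0.30 ± 0.07, adjusted p = 0.019). Combined libraries lay wholly below the wild-type ones for 8 members and above for 1, against 4.79% and 4.66% of all genes. The calls were fragile. The count was 0 without combined TAC replicate 1, 0 with the sex label as a term or with only these 2 groups in the fit, 1 with the GC trend removed (2.62% of genes) and 4 without combined TAC replicate 2 and wild-type TAC replicate 2. It was 2 to 4 when any 1 wild-type TAC library was left out.

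For members as for all genes, the TAC effect often differed between combined and wild-type hearts. The interaction, the log2 TAC effect in combined minus that in wild type, was called for 10 of 34 members, 8 higher and 2 lower, where 25.1% of all genes were called, 12.6% higher and 12.5% lower. The share of members called, 29.4%, is thus near that of all genes. Without combined TAC replicate 2 and wild-type TAC replicate 2 the count was 8, 7 higher and 1 lower. Decr1 had the biggest value, 0.86 ± 0.16 (adjusted p = 0.00052), from TAC effects of 0.20 ± 0.12 in combined and -0.65 ± 0.12 in wild-type hearts. Hadh had 0.61 ± 0.14 (adjusted p = 0.0019), with combined libraries at 306, 322, 402 and 312 CPM unstressed and 349, 406, 333 and 389.9 after TAC. For Acadvl it was 0.39 ± 0.09 (adjusted p = 0.0031), and its combined libraries held 666, 766, 713 and 751 CPM after TAC. Lpl (0.60 ± 0.13, adjusted p = 0.0011), Cd36 (0.85 ± 0.21, adjusted p = 0.0049), Acadl (0.44 ± 0.11, adjusted p = 0.0036), Etfa (0.34 ± 0.12, adjusted p = 0.03) and Acot13 (0.29 ± 0.11, adjusted p = 0.044) also had higher values. Plin5 (-0.58 ± 0.17, adjusted p = 0.016) and Acads (-0.34 ± 0.10, adjusted p = 0.015) had lower ones, with TAC effects of -0.42 ± 0.12 and -0.23 ± 0.07 in combined hearts. Etfa and Acot13 lost the call under 11 and 15 alternatives, and Acads without combined TAC replicate 2 and wild-type TAC replicate 2. Unstressed libraries enter both this test and that against unstressed wild type, so the 2 results are not independent.

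**Figure D4:**
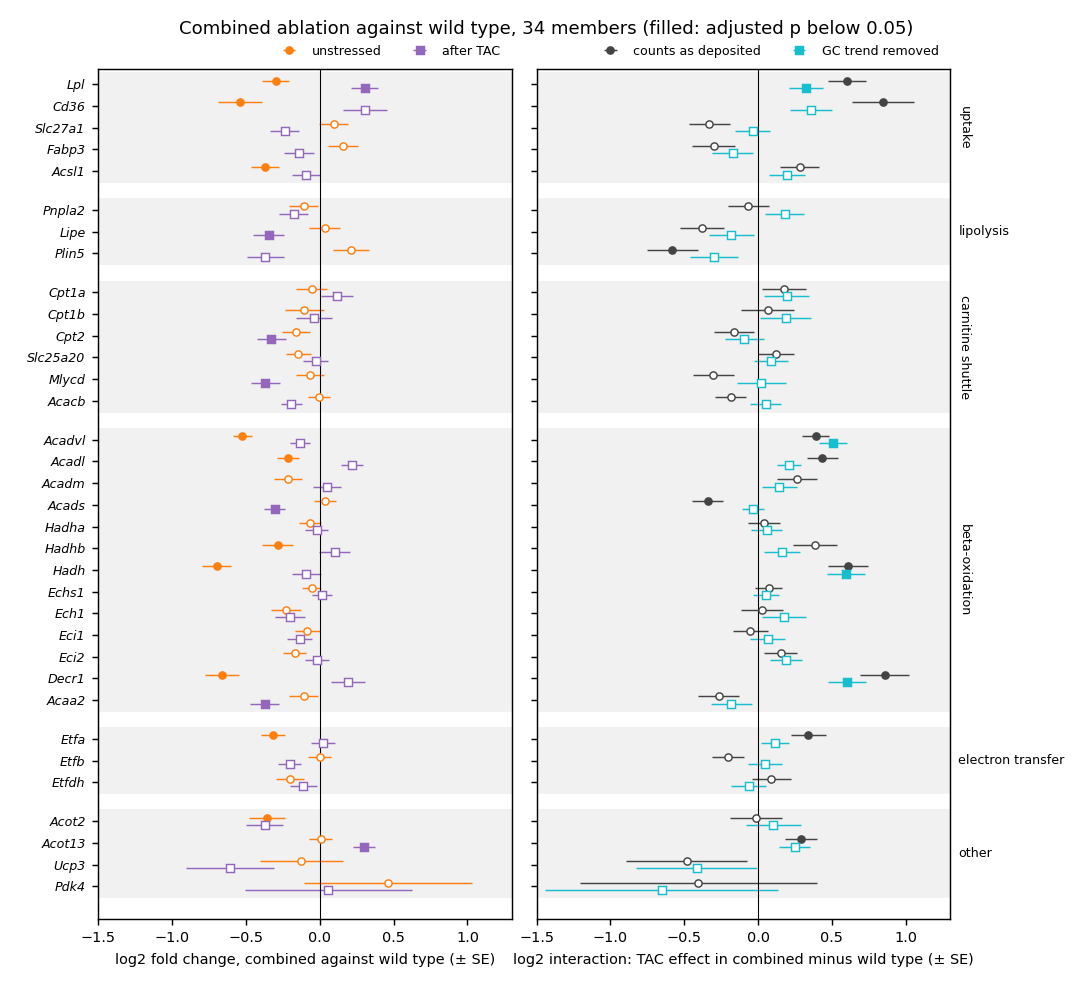
Left, log2 fold change of combined against wild-type hearts (x axis, ± SE) for each member (y axis, by step), unstressed (circles) and after TAC (squares). Right, the log2 interaction with TAC from the counts as deposited (circles) and with the GC trend removed (squares); filled points have an adjusted p below 0.05, and 10 circles but 4 squares are filled on the right.

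Fold changes followed the base composition of the transcripts, over all genes and among the members. The GC content of the members ran from 38.4% in Cd36 and 43.5% in Lpl to 60.1% in Acads and 61.0% in Mlycd. Between Cd36 and Mlycd it differs already where the coding sequence begins. The opening 150 coding bases of both extremes are given from the start codon (chromosome 5, position 17828894, minus strand for Cd36, and chromosome 8, position 119394946, plus strand for Mlycd, in GENCODE vM21 on GRCm38), with G and C in capitals.
Cd36: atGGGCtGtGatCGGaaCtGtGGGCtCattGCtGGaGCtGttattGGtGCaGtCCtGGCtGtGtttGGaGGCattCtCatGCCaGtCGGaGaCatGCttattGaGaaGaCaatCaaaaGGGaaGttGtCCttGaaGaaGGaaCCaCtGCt
Mlycd: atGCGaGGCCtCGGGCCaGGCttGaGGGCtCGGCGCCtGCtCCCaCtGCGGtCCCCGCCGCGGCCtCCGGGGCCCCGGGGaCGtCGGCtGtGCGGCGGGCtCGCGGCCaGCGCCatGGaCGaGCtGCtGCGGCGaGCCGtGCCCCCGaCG
G and C make up 49.3% of these bases in Cd36 and 80.0% in Mlycd. The gap is smaller between Lpl and Acads, whose opening 150 coding bases hold 57.3% and 62.0%. Over the genes with a known GC content, the median interaction of combined hearts was 0.33 in the fifth of genes with the lowest GC content and -0.29 in the fifth with the highest. Among the 17 members of lower GC content the median was 0.28, with 7 called, and among the 17 of higher GC content -0.20, with 3 called. Across the 34 members Spearman's rho between GC content and fold change was -0.72 for this interaction, 0.54 for combined against wild type unstressed and 0.40 for TAC in wild type. These are descriptions, since the members share libraries and are not independent.

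The trend belonged to libraries as well as groups. A smooth curve of each library's log2 level, relative to the mean of all libraries, differed between transcripts of 58.3% and of 42.2% GC by -0.20 to 0.001 in unstressed wild-type libraries, 0.13 to 0.25 in unstressed combined ones, 0.14 to 0.29 in wild-type TAC and -0.32 to 0.17 in combined TAC libraries. When this trend was removed from each library, a step added after the data were seen, 27, 10, 24 and 23 members were called for TAC in wild-type, PKCδ, PKCε and combined hearts, nearly all lower (27, 9, 24 and 21). Of the 12951 genes with a GC value, 33.1%, 23.1%, 27.8% and 44.6% were called in either direction. Of the members higher after TAC, Cpt1b in wild type (0.28 ± 0.12, adjusted p = 0.073) and Acads in PKCδ hearts were no longer called. Combined against wild type unstressed had 9 calls, all lower, where 26.4% of genes were called, Pnpla2 and Ech1 among them as additions, with Hadh at -0.69 ± 0.09 (adjusted p = 5e-06), Acadvl at -0.59 ± 0.07 (adjusted p = 4.4e-07) and Decr1 at -0.54 ± 0.09 (adjusted p = 7.1e-05), while Lpl (-0.16 ± 0.08, adjusted p = 0.14), Acadl (-0.10 ± 0.06, adjusted p = 0.2) and Hadhb (-0.18 ± 0.08, adjusted p = 0.12) were lost. The interaction was called for 4 members, a share no higher than the 15.9% of all genes under this fit, Lpl (0.32 ± 0.11, adjusted p = 0.049), Acadvl (0.51 ± 0.10, adjusted p = 0.00067), Hadh (0.59 ± 0.13, adjusted p = 0.0028) and Decr1 (0.60 ± 0.13, adjusted p = 0.0021). For Cd36 it was 0.36 ± 0.14 (adjusted p = 0.08) and for Acads -0.04 ± 0.08 (adjusted p = 0.8). Whether the trend is technical or biological was not tested.

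**Figure D5:**
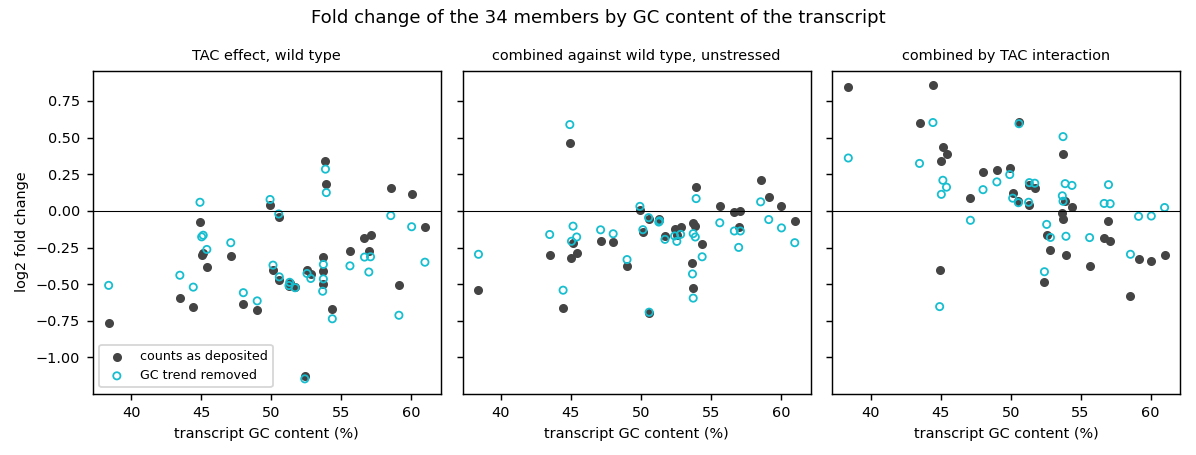
Log2 fold change (y axis) of the 34 members against the GC content of the transcript in percent (x axis) for 3 comparisons, from the counts as deposited (filled) and with the GC trend of each library removed (open). On the right the filled points run from 0.85 at 38.4% GC (Cd36) to -0.30 at 61.0% (Mlycd).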

How the data were processed

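RNA-seq counts per gene symbol were deposited for 29 libraries of polyadenylated mouse heart RNA, non-strand-specific and single-end per the labels' protocols. The submitters' processing notes name mm10, TopHat2 2.0.10, Bowtie2, HTSeq, DESeq and edgeR, with no role or order, and the annotation is not given in the sources used here. Totals of reads outside genes were left out of library sizes. Reads on more than 1 gene made up 0.776% to 0.942%, and reads aligned to several places 8.01% to 14.2%.

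The counts were fitted with edgeR 4.0.16 (limma 3.58.1, R 4.3.3): TMM scaling, filterByExpr by group, means of 8 groups, robust quasi-likelihood, 21 residual degrees of freedom, and Benjamini-Hochberg adjustment over 13765 genes within each of 13 comparisons at 0.05. No sex term was used, because sex labels went against Xist and Y-linked counts. CPM values are scaled by TMM, and exon lengths are from GENCODE vM21. Alternatives were RLE scaling, total counts, no filter, sex label, replicate block, DESeq2 1.42.0, fits of only the groups compared, omission of each library in turn, and of 2 doubted libraries together. A trend by GC content (lowess, span 0.3, 94.1% of genes with a value), the same with length, and the AAGGTCA search were added after seeing the data. The test was also run on simulated counts with known fold changes. Those counts held no GC trend and no mixed libraries, so that run cannot vouch for calls that depend on either. The members and lists were chosen with earlier results of these data known. All members could be named. Of other genes, Prkce, Prkcd, up to 4 called genes per list and markers needed to state levels could be named. Figures were drawn with matplotlib 3.10.9.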

Additional observations from a re-analysis of the deposited data

Results flagged for a closer look

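The TAC effect differed between combined and wild-type hearts, by the test of the difference itself, for 10 members, or 29.4% of them, near the 25.1% of all genes called in the same test. The log2 interactions were 0.60 for Lpl, 0.85 for Cd36, 0.39 for Acadvl, 0.44 for Acadl, 0.61 for Hadh, 0.86 for Decr1, 0.34 for Etfa and 0.29 for Acot13, and -0.58 for Plin5 and -0.34 for Acads. With the GC trend removed Lpl, Acadvl, Hadh and Decr1 were still called, and the other 6 were not, where 15.9% of all genes were called.

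In groups of 4 libraries, 12 member levels lay far from the other 3 by Dixon's criterion, of 170 combinations of member and group tested. Chance flags about 1 in 20. Unstressed combined replicate 3 was high in Pnpla2 (618 CPM), Hadh (402 CPM) and Pdk4 (993 CPM). Combined replicate 1 of the same condition was low in Acaa2 (535 CPM). Combined TAC replicate 2, the library that goes against its label in Prkce, was low in Fabp3 (3698 CPM) and high in Hadha (1388 CPM). Among wild-type libraries, unstressed replicate 2 was low in Hadh (472 CPM) and Acot13 (146 CPM), unstressed replicate 3 high in Cpt1b (12.8 CPM), TAC replicate 2 high in Etfb (549 CPM) and TAC replicate 3 low in Mlycd (83.0 CPM). PKCε TAC replicate 1 was low in Echs1 (252 CPM).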

How the results depend on the processing

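In the 8 comparisons with a member called, 120 of 144 counts of called members recomputed under the alternatives stayed within 1.5 times the reported count. The other 5 had no member called and show nothing about stability. For PKCδ against wild type unstressed (1 member) the count was 0 with total counts, 0 with the GC trend removed, 0 with GC and length trends removed, 3 with only the groups compared, and 0 to 2 when each library was left out. For PKCε against wild type unstressed (0) it was 1 with only the groups compared, 1 by DESeq2 and 0 to 1 by library left out, the 1 without PKCε unstressed replicate 3. Combined against wild type after TAC (7) gave 0 with the sex label, 0 with only the groups compared, 4 without the 2 doubted libraries, 1 and 2 with the GC trend and the GC and length trends removed, and 0 to 8 by library left out. The combined interaction (10) gave 4 with the GC trend removed and 4 with both trends removed. TAC in PKCδ hearts (14) gave 8 to 12 by library left out, 8 without unstressed replicate 1 and 9 without TAC replicate 3. Combined against wild type unstressed (10) gave 6 to 10, 6 without combined unstressed replicate 1. The cause was not tested. Total-count scaling moved the median of all genes by 0.12 in wild type and 0.106 in PKCε hearts after TAC. Under it 18 members were called lower and 3 higher in wild type, and 20 and 1 in PKCε hearts.

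Replicate numbers did not pair the libraries: correlations of same-numbered libraries ranged from -0.2 to 0.24. With the replicate block the counts were 26, 13, 23 and 23 for TAC in wild-type, PKCδ, PKCε and combined hearts, 11 for combined against wild type unstressed, 6 after TAC and 10 for the combined interaction.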

Other observations

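Genes next to the pathway also differed in unstressed combined hearts. Of all genes tested in this comparison, 15.3% were called higher than in wild type and 13.9% lower. Among 8 partners of lipolysis and lipid storage, 3 were higher and 1 lower, and the counts were the same with the GC trend removed. In log2 fold change (± SE, edgeR) Plin2, a lipid droplet coat protein, was 0.47 ± 0.08 (adjusted p = 0.00012), Plin3 was 0.68 ± 0.13 (adjusted p = 0.00038) and Dgat1, which makes triglyceride, was 0.50 ± 0.09 (adjusted p = 0.00017), while Dgat2 was -0.91 ± 0.16 (adjusted p = 0.00023). Among 12 regulators 3 were lower and 2 higher. Pparg, the receptor PPARγ, was -1.03 ± 0.18 (adjusted p = 0.00011), Ppargc1a was -0.59 ± 0.14 (adjusted p = 0.0021) and Esrrg was 0.35 ± 0.07 (adjusted p = 0.00031). Pparg (1.13 ± 0.25, adjusted p = 0.0018) and Ppargc1a (0.82 ± 0.19, adjusted p = 0.003) also had a called interaction with TAC. The uncoupling protein gene Ucp2 was 1.58 ± 0.30 (adjusted p = 0.00055) in these hearts, while Ucp3 was -0.13 ± 0.28 (adjusted p = 0.77).

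Fabp4 and Fabp5, fatty acid-binding proteins known from cells other than cardiomyocytes, were called where Fabp3 was not. Fabp4 was lower in unstressed combined hearts (-0.61 ± 0.10, adjusted p = 7.9e-05) and had an interaction of 0.83 ± 0.15 (adjusted p = 0.00022), and Fabp5 an interaction of 0.67 ± 0.13 (adjusted p = 0.00044). Endothelial markers moved with them, 4 of 8 called lower in unstressed combined hearts and 3 of 8 called higher in the interaction (5 and 1 with the GC trend removed). Fabp4 and Fabp5 belong to 12 tested genes of uptake and activation outside the members. Of the 12, 3 were called lower in unstressed combined hearts and 5 higher in the interaction (2 and 3 with the GC trend removed). Values of Fabp4 and Fabp5 with that trend removed are not given here. The shares of all genes called in these directions were 13.9% and 12.6%. The part of endothelial cells was not tested.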
